A study of Rattus norvegicus with 12 samples.

Results

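The genes described here are the ubiquitin-conjugating enzymes (E2 enzymes) of rat whole blood, taken as every gene whose symbol starts with Ube2. The count tables held 29 such genes among 17337. Whole blood RNA was sequenced on the Ion Proton instrument from adult males of 2 inbred rat strains, Wistar Kyoto (WKY) and Fischer (F344). Rats were 70 to 90 days old, and all were put through contextual fear conditioning, then 4 weeks in the home cage, later a repeat of the conditioning, and decapitation 24 hours after it. Between the conditioning tests, the stressed groups had chronic restraint stress (CRS), 2 hours of restraint daily for 2 weeks, and the no stress (NS) groups stayed in the home cage. The groups were F344 NS, F344 CRS, WKY NS and WKY CRS, with 3 libraries each. Whether the 3 libraries of a group came from different rats is not stated in the labels; the p-values rest on the spread among libraries, which may be technical.

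E2 enzymes are the middle step of ubiquitin attachment: an activating enzyme (E1) charges ubiquitin, an E2 carries it, and a ligase (E3) brings the E2 to the protein to be marked. Some E2 enzymes serve relatives of ubiquitin instead, such as NEDD8 or ISG15. In blood they are known for the clearance of organelles and proteins while a reticulocyte, a young red cell without a nucleus, matures, for interferon responses in white cells, and for the timed breakdown of mitotic proteins in dividing precursors.

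Depth set the limits of every value. The features LOC310926, LOC257642 and Rn5-8s, 3 in all, held 88.9% to 94.6% of gene counts, which left 90796 to 419789 counts a library for all other genes, and the 29 E2 genes received 84 to 397 counts a library. That was 0.0798% to 0.121% of the counts outside those 3 features. Levels are given as CPM, which puts counts on a shared scale across libraries by trimmed-mean (TMM) normalisation, in which 1 count stood for 0.201 to 1.14 CPM. F344 NS replicate 3 was the shallowest library, F344 NS replicates 2 and 3 had the lowest scaling factors (0.625 and 0.521), and values of Ube2c, Ube2b and Ube2l6 that rest on them are given without them as well. Blood cell markers were present: the 39 erythroid genes summed to 1384 to 2897 CPM, the 18 T cell genes to 48.7 to 85.5 CPM and the 13 neutrophil genes to 35.2 to 69.5 CPM. The 7 skeletal muscle genes, fixed as markers of carried-over tissue, summed to 2.53 to 12.1 CPM and none passed the count filter. In whole blood, fewer cells of a type and less RNA per cell cannot be told apart.

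All 29 genes had at least 1 count in at least 1 library, but 11 passed the filter on low counts and could be tested. Reported by name are 10 of them: Ube2v1, Ube2h, Ube2s, Ube2c, Ube2m, Ube2b, Ube2d3, Ube2l3, Ube2q1 and Ube2l6. Counts over the family cover all 11. The 11 held 2674 of the 3167 counts of the family. Ube2v1, a catalytically inactive partner that lets Ube2n build non-degradative ubiquitin chains, held 39.8% of the family's counts with 1261, and Ube2h followed with 308 (9.73%). Counts were not divided by transcript length, so this order is not an order of mRNA abundance. The GRCr8 RefSeq gene table names 19 pseudogenes after Ube2v1, 9 after its partner Ube2n, 4 each after Ube2c and Ube2s and 3 after Ube2l3. Reads shared with such copies may have been split or set aside in counting, so the levels of these genes are uncertain.

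**Figure D1:**
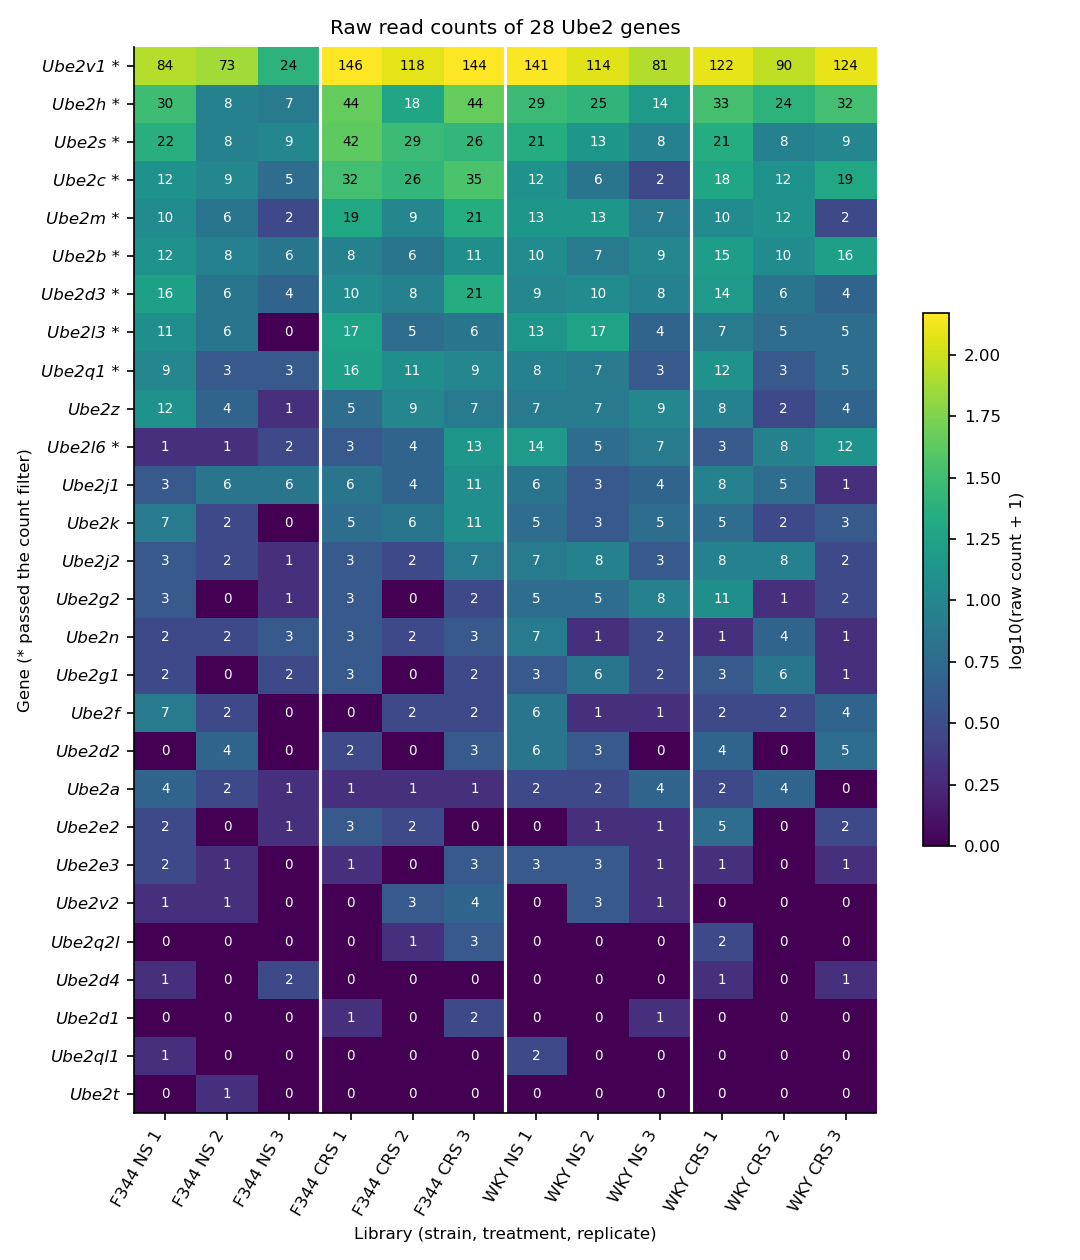
Raw read counts of 28 of the 29 E2 genes (rows, ordered by total) in the 12 libraries (columns, by strain, treatment and replicate), with the colour on a log10(count + 1) scale and an asterisk on the 10 shown that passed the count filter. Ube2v1 has 24 to 146 counts in every library, while most genes in the lower part of the map have fewer than 10.

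The other 18 genes held 493 counts together, from Ube2z with 75 down to Ube2t with 1. Ube2l6, with 73 counts, had 12 or more in 3 libraries and passed the filter, and Ube2z, with 75, had 10 or more in 1 library and did not. Ube2z, which carries ubiquitin and FAT10 charged by the activating enzyme Uba6, had 1 to 12 counts a library. The endoplasmic reticulum E2 genes Ube2j1, Ube2j2 and Ube2g2 had 63, 54 and 41 counts in all, and Ube2k, which extends chains, had 54. Ube2n, the active partner of Ube2v1, had 31 counts in all and 1 to 7 a library, and Ube2v2, the alternative partner, had 13. The NEDD8 enzyme Ube2f had 29 counts. The ubiquitin-initiating genes Ube2d2, Ube2e2, Ube2e3, Ube2d4 and Ube2d1 had 27, 17, 16, 5 and 4. Ube2a, the close relative of Ube2b, had 24, and Ube2t, of the Fanconi anaemia DNA repair pathway, had 1 count, in F344 NS replicate 2. No fold change is given for these 18 genes at this depth, since a count of 0 in F344 NS replicate 3, the shallowest library, allows levels of up to 3.40 CPM. No gene with the symbol Ube2o, Ube2e1, Ube2w, Ube2q2 or Ube2r2 was among the 29 in the count tables, so their levels are not known here.

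None of the 11 tested E2 genes passed an adjusted p of 0.05 (edgeR's quasi-likelihood test, Benjamini-Hochberg over 2781 genes) in any of 7 comparisons. In the CRS comparisons, the share of all tested genes that passed was 0.0% within F344, 0.0% within WKY and 0.036% averaged over the strains. For WKY against F344 it was 0.683% without stress, 1.4% after CRS and 3.74% averaged over treatments, and it was 0.0% for the strain-by-stress difference, that is, whether the CRS response differed between strains. These shares rest on single libraries in part: without stress 19 genes passed, against 5 without F344 NS replicate 2 and 44 without F344 NS replicate 1. At an unadjusted p under 0.05, 1 of 11 E2 genes was found for CRS within F344 (Ube2b, against 4.71% of all genes), 1 within WKY (Ube2c, against 5.79%) and 1 averaged over strains (Ube2c, against 7.01%). For the strains, the count was 1 without stress (Ube2c, against 9.35%), 2 after CRS (Ube2b and Ube2s, against 11%), and 3 averaged over treatments (Ube2s, Ube2c and Ube2l6, against 14.8%). The difference in response gave 1 (Ube2b, against 3.81%). With 11 genes these counts lie near the background shares. The 0 calls also stood under DESeq2 and limma-voom.

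The fold changes of the family were of both signs within each strain after CRS and between the strains under each treatment. For CRS within F344, 8 of 11 fold changes were positive and the median log2 fold change was 0.18, beside 0.01 over all tested genes. Within WKY, 6 were positive and the median was 0.03, beside 0.02. For WKY against F344, 5 of 11 were positive without stress (median -0.07, beside -0.01) and 4 of 11 after CRS (median -0.24, beside 0.00).

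**Figure D2:**
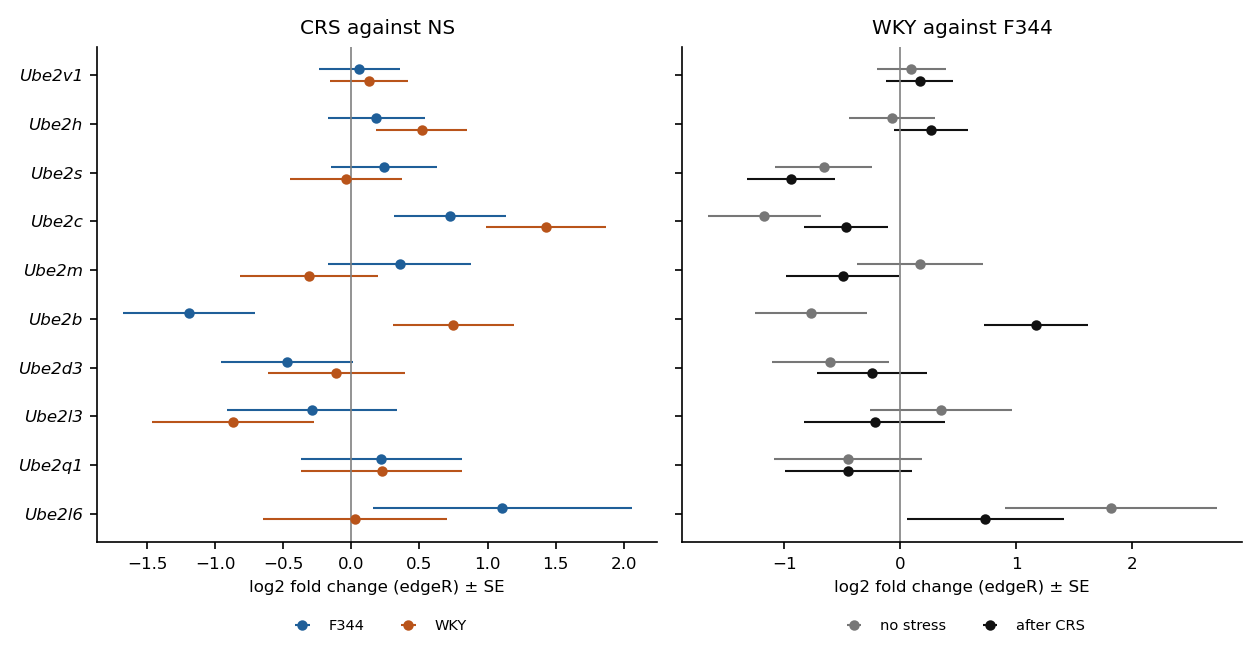
Log2 fold changes with SE from edgeR for 10 of the 11 tested E2 genes, CRS against NS in each strain (left) and WKY against F344 under each treatment (right). Ube2c lies right of 0 in both strains after CRS (0.73 and 1.43), Ube2b lies on opposite sides in the strains (-1.19 and 0.75), and no value passed the adjusted threshold.

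Ube2c, an E2 of cell division, had the smallest p-value of the family for CRS in WKY and averaged over strains. Ube2c starts, and Ube2s then extends, the ubiquitin chains that the anaphase-promoting complex (APC/C) puts on cyclin B and securin to end mitosis. The CPM of Ube2c were 3.29, 5.46 and 5.67 in F344 NS and 6.42, 8.82 and 7.06 in F344 CRS. In WKY they were 2.74, 1.95 and 0.769 without stress and 4.56, 5.18 and 6.20 after CRS. Every stressed library was above every unstressed library of its strain, which held for 1 of 11 E2 genes and for 0.288% of all tested genes. Every WKY library was also below every F344 library under the same treatment, again for 1 of 11 and for 1.62% of all tested genes.

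The mean of Ube2c was 4.81 ± 1.32 CPM (SD, n = 3) in F344 NS and 7.43 ± 1.24 in F344 CRS, against 1.82 ± 0.994 in WKY NS and 5.31 ± 0.828 in WKY CRS. The log2 fold change after CRS was 0.73 (SE 0.41; adjusted p = 0.940) in F344 and 1.43 (SE 0.44; adjusted p = 0.618) in WKY. Averaged over the strains it was 1.08 (SE 0.30; adjusted p = 0.447), the sixth smallest p among 2781 genes, and 6 of 6 stressed libraries lay above the unstressed ones of their own strain. The raw counts behind it were 26 against 93 in F344 and 20 against 49 in WKY, which gave ratios after scaling of 1.71 (95% exact interval 1.10 to 2.76) and 2.64 (1.54 to 4.69). These intervals cover counting error only. Without F344 NS replicates 2 and 3, the value averaged over strains was 1.33 and the strain value without stress -0.70. WKY against F344 gave -1.17 (SE 0.49; adjusted p = 0.375) without stress, -0.47 (SE 0.36; adjusted p = 0.682) after CRS and -0.82 (SE 0.30; adjusted p = 0.149) averaged over treatments.

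Ube2s stood lower in WKY than in F344 and differed little between treatments. It was 6.03, 4.85 and 10.2 CPM in F344 NS, 8.42, 9.84 and 5.24 in F344 CRS, 4.80, 4.23 and 3.07 in WKY NS and 5.32, 3.45 and 2.94 in WKY CRS. Without stress the scaled levels of the strains did not overlap, by a margin as narrow as 4.80 against 4.85, but their raw counts did. After CRS the scaled levels overlapped at 5.32 and 5.24. The log2 difference of WKY from F344 was -0.66 (SE 0.42; adjusted p = 0.672) without stress, -0.94 (SE 0.38; adjusted p = 0.304) after CRS and -0.80 (SE 0.28; adjusted p = 0.126) averaged over treatments. For CRS it was 0.24 (SE 0.39) in F344 and -0.04 (SE 0.41) in WKY (adjusted p = 0.999 and 0.991). Ube2c and Ube2s together summed to 9.32, 10.3 and 15.9 CPM in F344 NS, 14.8, 18.7 and 12.3 in F344 CRS, 7.55, 6.19 and 3.84 in WKY NS and 9.89, 8.63 and 9.14 in WKY CRS. Over the 12 libraries, their log2 levels had a Pearson r of 0.52, given as a description, since libraries share group and depth.

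The stretch before the start of Ube2s is printed because promoters of late cell cycle genes are known to carry a pair of elements, the CCAAT box and the cell cycle homology region (TTTGAA or its variant TTCGAA). The sequence is the 250 bases up to the start of transcription, from the RefSeq table of assembly GRCr8 (chr1:78057409-78057658, plus strand), and the capitals mark a CCAAT box in reverse (ATTGG, 244 to 240 bases before the start) and TTCGAA (217 to 212 before it).
Ube2s: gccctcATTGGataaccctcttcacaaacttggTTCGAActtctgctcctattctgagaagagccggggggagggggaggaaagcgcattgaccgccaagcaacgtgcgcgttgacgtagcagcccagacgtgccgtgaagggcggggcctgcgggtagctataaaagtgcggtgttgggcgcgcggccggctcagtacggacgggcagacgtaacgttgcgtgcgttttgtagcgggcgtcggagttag
Of 33469 promoters of this length in the table, searched on both strands, 34.0% held CCAAT, 16.2% TTTGAA and 1.4% TTCGAA. Among 26 entries for 25 of the 29 E2 genes, CCAAT was found in 7, TTTGAA in 2 (Ube2f and Ube2m) and TTCGAA in the Ube2s entry alone. Ube2c was among the genes without an entry, so its promoter was not searched. TTTGAA and TTCGAA cannot match the same bases. A match describes the letters and is no evidence of a factor at the site.

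Among the other genes of cell division none passed the test. Of 28 such genes in the tables, 7 could be tested and 0 passed in any comparison. For CRS averaged over strains, 5 of the 7 fold changes were positive with a median of 0.20. The negative ones were those of Rrm2 (-0.25, SE 0.48) and Anapc1 (-0.05, SE 0.41). Fzr1, which activates the APC/C after mitosis, had a log2 fold change of 0.24 (SE 0.24), and Anapc2, a core subunit of the complex, 0.35 (SE 0.44). That average of Anapc2 joins a log2 fold change of 1.59 in F344 (SE 0.68; adjusted p = 0.918) and -0.89 in WKY (SE 0.53; adjusted p = 0.958), with a difference between strains, WKY minus F344, of -2.49 (SE 0.87; adjusted p = 0.993). Mki67, the Ki-67 proliferation marker, stood at 6.93 ± 2.75 CPM (SD, n = 3) in F344 NS, 5.34 ± 0.51 in F344 CRS, 4.66 ± 1.68 in WKY NS and 5.56 ± 2.1 in WKY CRS, and its groups overlapped in each strain. Its log2 fold change was 0.03 (SE 0.29; adjusted p = 0.992) averaged over strains.

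Marker levels of other cells also differed between the groups compared for Ube2c. The 12 platelet genes summed to 47.7 to 81.1 CPM in F344 NS and 92.7 to 109 in F344 CRS, and to 69.6 to 131 in WKY NS and 117 to 193 in WKY CRS. For CRS, all 9 tested platelet genes had positive fold changes in each strain, beside 51.0% of all tested genes in F344 and 51.2% in WKY. Of the 9, 0 passed the threshold for CRS. For WKY against F344 averaged over treatments, 8 of the 9 were positive and 4 passed as higher, as did 59 of 2781 tested genes. Among the 12 platelet genes, 1 had no count in any library. The 18 T cell genes summed to 69.9 to 85.5 CPM over the F344 libraries and 48.7 to 61.9 over the WKY libraries. Their part in the Ube2c and Ube2s values was not tested.

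Ube2b had opposite CRS values in the strains. It is an E2 of the Rad6 kind, known for marking histone H2B in active chromatin and for DNA damage bypass, and needed in male germ cells. Its level was 3.29, 4.85 and 6.81 CPM in F344 NS and 1.60, 2.03 and 2.22 in F344 CRS, so every stressed library was below the unstressed ones. In WKY it was 2.29, 2.28 and 3.46 CPM without stress and 3.80, 4.31 and 5.22 after CRS, with every stressed library above. The raw counts overlapped in F344, at 12, 8 and 6 without stress against 8, 6 and 11 after CRS. In WKY they met at 10, with 10, 7 and 9 against 15, 10 and 16. These separations of Ube2b therefore depend on the scaling. Groups without overlap in opposite directions were found for 11 of 2781 tested genes, 0.396%, of which Ube2b was the only E2 gene.

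The log2 fold change of Ube2b after CRS was -1.19 (SE 0.48; adjusted p = 0.918) in F344 and 0.75 (SE 0.44; adjusted p = 0.958) in WKY. The difference between strains, WKY minus F344, was 1.94 (SE 0.66; adjusted p = 0.993), the tenth smallest p of that comparison. The raw counts were 26 against 25 in F344, in libraries that were shallower without stress, and 26 against 41 in WKY, for ratios after scaling of 0.461 (95% exact interval 0.255 to 0.830) and 1.70 (1.02 to 2.89). Without F344 NS replicates 2 and 3, the F344 value was -0.68 and the difference 1.45. After CRS, Ube2b was higher in every WKY library than in every F344 library on the CPM scale, though not in raw counts. The log2 difference was 1.17 (SE 0.45; adjusted p = 0.265), and 9.56% of all tested genes were higher in WKY without overlap.

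The 250 bases before the start of Ube2b (GRCr8, chr10:36763944-36764193, minus strand, printed in the direction of the gene) are shown as the upstream sequence of the E2 gene with the widest difference between strains in CRS response. None of the 6 motifs searched was found in it, so nothing is in capitals, and the absence of these letters says nothing of the factors.
Ube2b: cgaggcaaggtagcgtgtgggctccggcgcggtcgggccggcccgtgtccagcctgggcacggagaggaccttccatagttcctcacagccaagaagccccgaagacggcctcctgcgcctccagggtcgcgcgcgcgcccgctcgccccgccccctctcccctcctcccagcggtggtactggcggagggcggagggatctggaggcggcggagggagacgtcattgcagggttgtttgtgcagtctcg
Besides the 3 above, the motifs were an E2F site (TTCCCGCC, in 1.52% of all promoters), an interferon response element (GAAA, any 2 letters and GAAA again, in 3.41%) and a GATA site (AGATAA, in 10.3%). The E2F letters were found before Ube2q1 and Ube2v1, the interferon element before Ube2d3 and the GATA letters before Ube2l3.

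**Figure D3:**
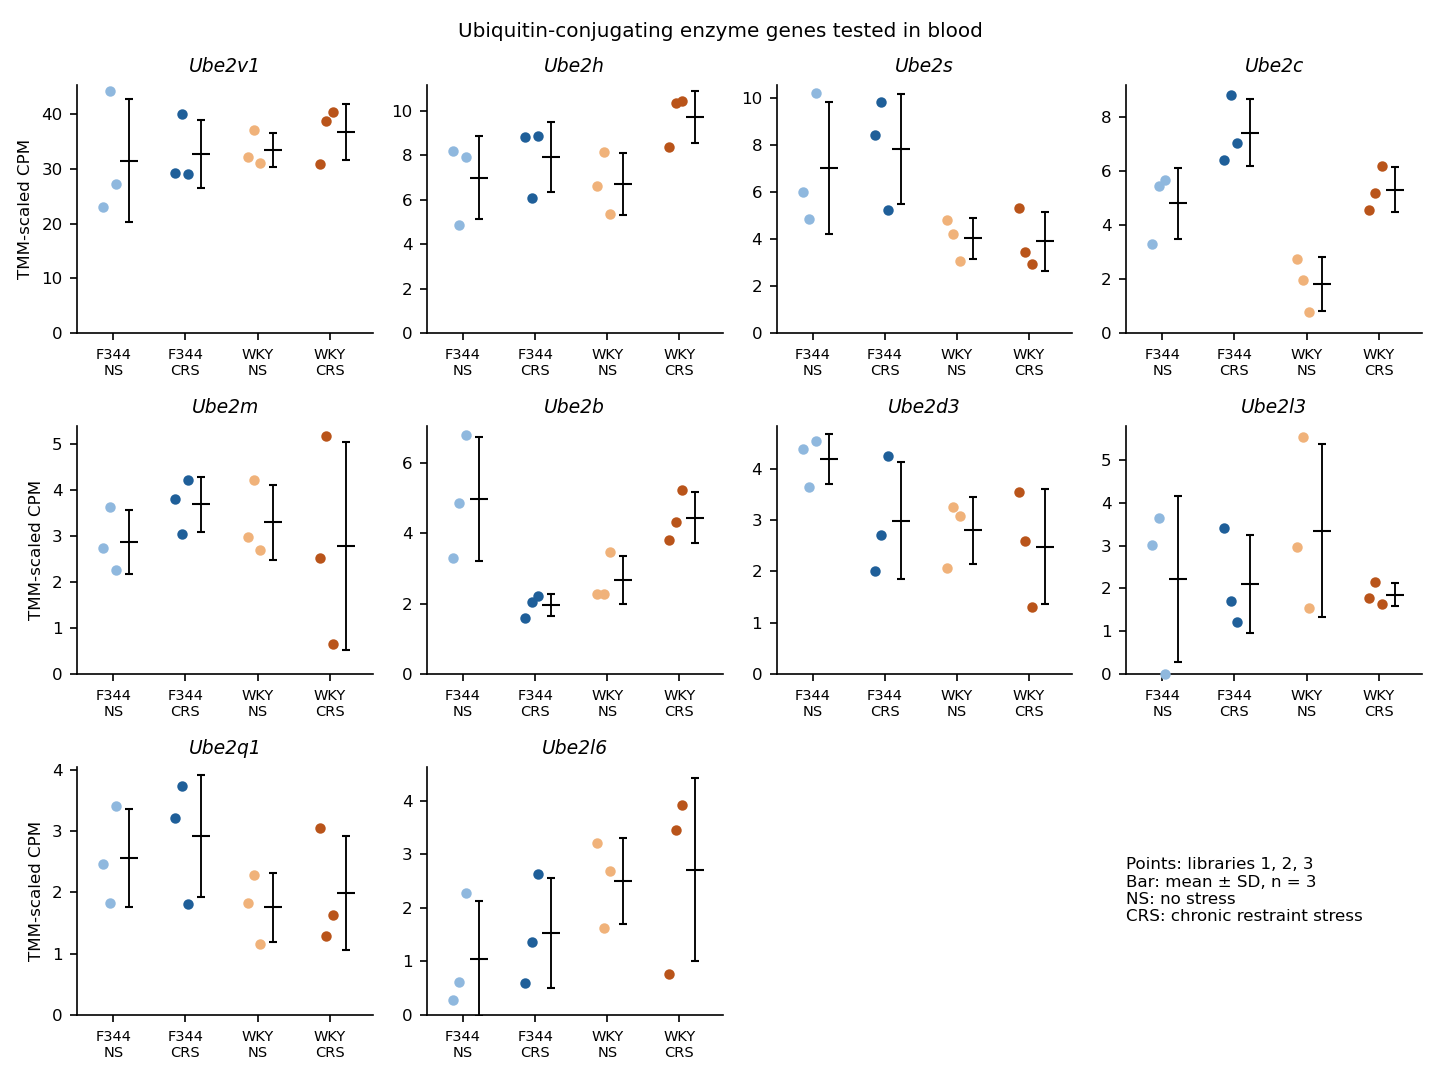
Level of 10 of the 11 tested E2 genes in TMM-scaled CPM (vertical axis, from 0, scaled per gene) in the 4 groups (horizontal axis), with points for libraries and bars for mean ± SD, n = 3; the part of a bar under 0 is not drawn. Ube2c separates stressed from unstressed libraries in each strain, Ube2b does so in opposite directions, and the groups of Ube2v1, Ube2m and Ube2q1 overlap.

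Ube2l6 and Ube2m carry relatives of ubiquitin, and neither passed the test in any comparison. Ube2l6 carries ISG15, an interferon-induced relative of ubiquitin, and is itself induced by interferon. It was 0.274, 0.607 and 2.27 CPM in F344 NS, 0.602, 1.36 and 2.62 in F344 CRS, 3.20, 1.63 and 2.69 in WKY NS and 0.760, 3.45 and 3.92 in WKY CRS. The highest F344 libraries overlapped the lowest WKY libraries under each treatment. WKY against F344 gave a log2 difference of 1.82 (SE 0.91; adjusted p = 0.537) without stress, 0.73 (SE 0.68; adjusted p = 0.757) after CRS and 1.28 (SE 0.57; adjusted p = 0.270) averaged over treatments.

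The F344 NS libraries held 4 raw counts of Ube2l6 in all, and the WKY NS libraries 26, for a ratio after scaling of 4.0 (95% exact interval 1.39 to 15.8). The value therefore moved with single libraries: without stress it was 1.05 without F344 NS replicate 1, 2.63 without replicate 3 and 3.10 without replicates 2 and 3. After CRS it was 0.31 without WKY CRS replicate 3 and 1.48 without F344 CRS replicate 3.

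Ube2l6 belongs to the pathway in which the strain difference did pass for its substrate. Isg15 itself was 1.64, 0.607 and 1.14 CPM in F344 NS, 2.61, 1.36 and 0.806 in F344 CRS, 9.38, 5.21 and 2.69 in WKY NS and 8.87, 8.63 and 5.55 in WKY CRS. Every WKY library was above every F344 library. WKY was higher without overlap under both treatments for 2.19% of all tested genes. Isg15 was higher in WKY by 2.22 on the log2 scale averaged over treatments (SE 0.37; adjusted p = 0.000125) and by 2.22 after CRS (SE 0.46; adjusted p = 0.00552), while without stress the value of 2.22 did not pass (SE 0.58; adjusted p = 0.0699). Usp18, the protease that removes ISG15, had a log2 difference of 1.21 (SE 0.47; adjusted p = 0.169), and Uba7, the activating enzyme for ISG15, stood at 0 to 3.73 CPM and was not tested. The 28 interferon-stimulated genes, a list that holds Isg15 and Usp18, summed to 304 to 506 CPM over the F344 libraries and 650 to 850 over the WKY libraries. Of its 24 tested members, 10 passed as higher in WKY averaged over treatments, as did 59 of 2781 tested genes. The list was chosen with earlier results of these data known. The 10 monocyte genes summed to 59.5 to 88.9 CPM in F344 and 119 to 171 in WKY. The part of these in the Ube2l6 values was not tested.

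The same stretch is printed for Ube2l6 (GRCr8, chr3:90279455-90279704, plus strand), since the gene is known to be induced by interferon. The capitals mark a CCAAT box in reverse, ATTGG, 111 to 107 bases before the start, and the interferon response element was not found in these 250 bases.
Ube2l6: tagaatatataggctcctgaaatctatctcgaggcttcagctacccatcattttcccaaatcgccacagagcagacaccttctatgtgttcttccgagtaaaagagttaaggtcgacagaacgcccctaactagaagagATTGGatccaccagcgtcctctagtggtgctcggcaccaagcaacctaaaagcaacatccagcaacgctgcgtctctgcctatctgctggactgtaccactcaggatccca

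**Figure D4:**
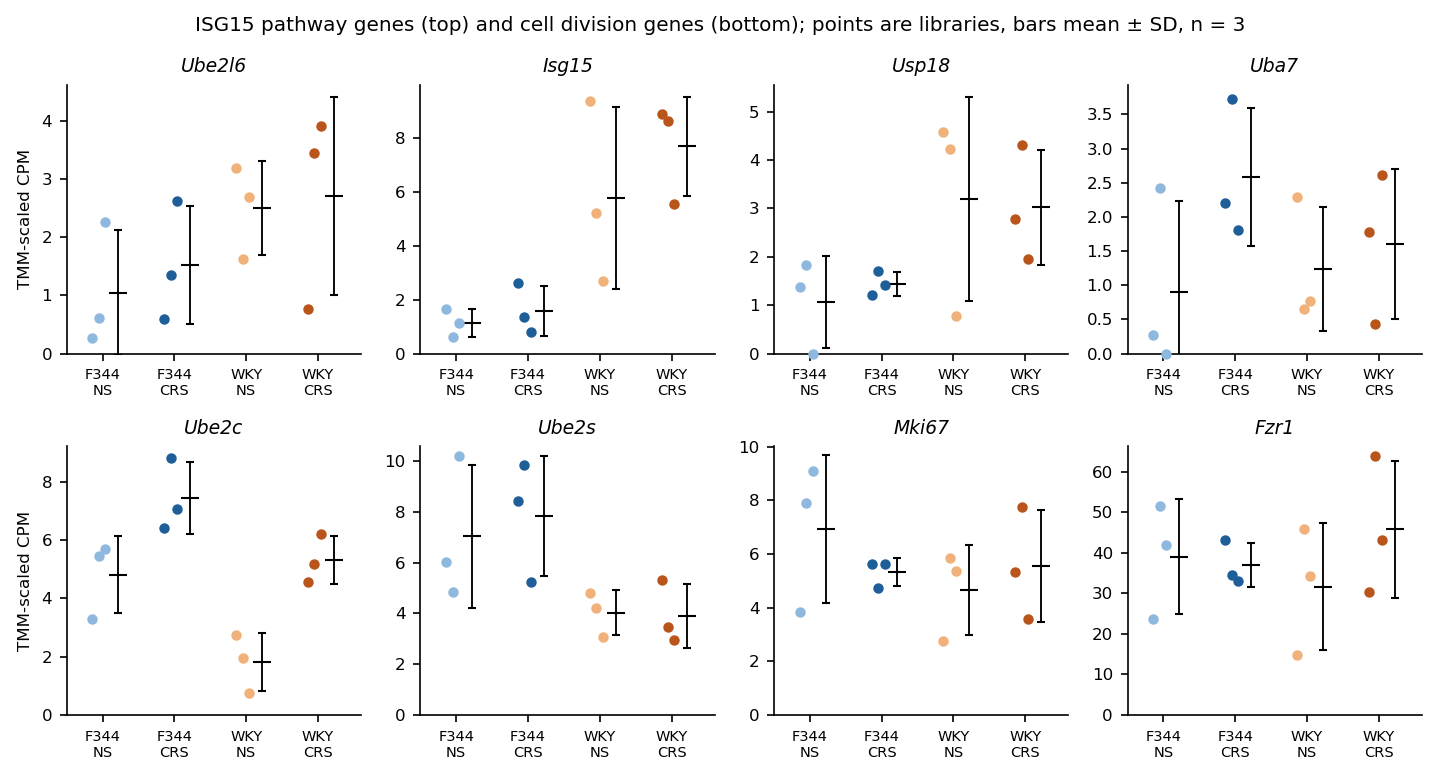
TMM-scaled CPM (vertical axes, from 0) by group for the ISG15 pathway genes Ube2l6, Isg15, Usp18 and Uba7 (top) and the cell division genes Ube2c, Ube2s, Mki67 and Fzr1 (bottom), with points for libraries and bars for mean ± SD, n = 3; the part of a bar under 0 is not drawn. All WKY libraries of Isg15 lie between 2.69 and 9.38, above the F344 libraries at 0.607 to 2.61, whereas the strains overlap for Ube2l6, Usp18, Mki67 and Fzr1.

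Ube2m, which passes NEDD8 to cullin ligases, was 2.74, 3.64 and 2.27 CPM in F344 NS, 3.81, 3.05 and 4.23 in F344 CRS, 2.97, 4.23 and 2.69 in WKY NS and 2.53, 5.18 and 0.653 in WKY CRS. Its groups overlapped in every comparison. Its log2 fold change after CRS was 0.35 (SE 0.52) in F344 and -0.31 (SE 0.51) in WKY, and WKY against F344 gave 0.17 (SE 0.54) without stress and -0.50 (SE 0.49) after CRS. With SEs of that size, differences of this order could not be detected.

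Ube2h and Ube2v1 were the most counted of the E2 genes. Ube2h, which works with the CTLH ligase complex in maturing red cells, was 8.22, 4.85 and 7.94 CPM in F344 NS and 8.82, 6.10 and 8.87 in F344 CRS, which overlapped. It was 6.63, 8.14 and 5.38 CPM in WKY NS and 8.36, 10.4 and 10.4 in WKY CRS, which did not. Its log2 fold change after CRS was 0.18 (SE 0.36; adjusted p = 0.999) in F344, 0.52 (SE 0.33; adjusted p = 0.975) in WKY and 0.35 (SE 0.24; adjusted p = 0.890) averaged over strains. Within WKY, 3 of 11 E2 genes had stressed libraries all above the unstressed ones (Ube2b, Ube2c and Ube2h), beside 4.89% of all tested genes, and 0 all below, beside 5.11%. Within F344, 1 was all above (Ube2c) and 1 all below (Ube2b), beside 6.22% and 5.68%. Between the strains without stress, 3 were lower in WKY without overlap (Ube2c, Ube2s and Ube2d3), beside 6.33%, and 0 were higher, beside 7.7%. The raw counts of all 3 overlapped. They were 12, 9 and 5 in F344 NS against 12, 6 and 2 in WKY NS for Ube2c. For Ube2s they were 22, 8 and 9 against 21, 13 and 8, and for Ube2d3 16, 6 and 4 against 9, 10 and 8. These separations therefore depend on the scaling, with factors of 1.49, 0.625 and 0.521 in F344 NS. After CRS 1 was lower (Ube2c), beside 10%, and under both treatments 0 were higher, beside 2.19%.

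Ube2v1, the most counted member, showed no separation of groups. It was 23.0, 44.3 and 27.2 CPM in F344 NS, 29.3, 40.0 and 29 in F344 CRS, 32.2, 37.1 and 31.1 in WKY NS and 30.9, 38.8 and 40.5 in WKY CRS, so the groups of every comparison overlapped. Its log2 fold change after CRS was 0.06 (SE 0.30) in F344 and 0.13 (SE 0.29) in WKY, and WKY against F344 gave 0.10 (SE 0.30) without stress and 0.17 (SE 0.29) after CRS. The counting intervals of these ratios ran from 0.905 to 1.29 and from 0.923 to 1.26 for CRS, in F344 and WKY in turn.

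Ube2d3 and Ube2l3 serve many ligases. Ube2d3 was 4.38, 3.64 and 4.54 CPM in F344 NS, 2.01, 2.71 and 4.23 in F344 CRS, 2.06, 3.26 and 3.07 in WKY NS and 3.55, 2.59 and 1.31 in WKY CRS. On the CPM scale, though not in raw counts, it was lower in every WKY than in every F344 library without stress (log2 -0.60, SE 0.51, adjusted p = 0.810). Ube2l3, which serves HECT and RING-between-RING ligases such as parkin, was 3.01, 3.64 and 0 CPM in F344 NS, 3.41, 1.70 and 1.21 in F344 CRS, 2.97, 5.53 and 1.54 in WKY NS and 1.77, 2.16 and 1.63 in WKY CRS. It had the most negative values for CRS within WKY, with a log2 fold change of -0.87 (SE 0.60; adjusted p = 0.975). Its 0 in F344 NS replicate 3 allows up to 3.40 CPM, the range of most other libraries. Ube2q1 ranged from 1.15 to 3.73 CPM and had log2 differences of -0.45 (SE 0.64) and -0.45 (SE 0.55) between strains without stress and after CRS.

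Because E2 genes are known for a role in reticulocytes, each was compared with the erythroid marker level, the summed CPM of 39 erythroid genes, over the 12 libraries. Of 11 E2 genes, 0 passed an adjusted permutation p of 0.05 (100000 resamples, two-sided, Benjamini-Hochberg over 2750 genes), beside 0.545% of all genes. The median r was 0.09 for the E2 genes and -0.09 over all genes. Ube2v1 had the highest value, a Pearson r of 0.61 (permutation p = 0.0359, adjusted 0.325) and a Spearman rho of 0.41 (permutation p = 0.186, adjusted 0.674). Without the 2 libraries farthest from the median erythroid level, F344 NS replicates 1 and 2, its r was 0.09, so the relation rests on those libraries. Their raw counts of Ube2v1 were 84 and 73, and their scaling factors 1.49 and 0.625. The erythroid level was scaled by the same factors, and the part of the scaling in r was not tested. Within groups the r of Ube2v1 was 0.71 (permutation p = 0.131, adjusted 0.740).

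Ube2h, the gene tied to red cell maturation, had an r of -0.22 (permutation p = 0.493, adjusted 0.794) and a rho of -0.20 (permutation p = 0.542, adjusted 0.887), and its r was 0.27 without those 2 libraries. Ube2c had 0.32 and Ube2b 0.44, with adjusted permutation p of 0.674 and 0.540. Among the 55 pairs of tested E2 genes, the median r was -0.11, with 23 positive, beside 0.00 over all pairs of tested genes. The highest was Ube2q1 with Ube2s, at 0.90 over the 12 libraries, which is a description of libraries that share group and depth.

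**Figure D5:**
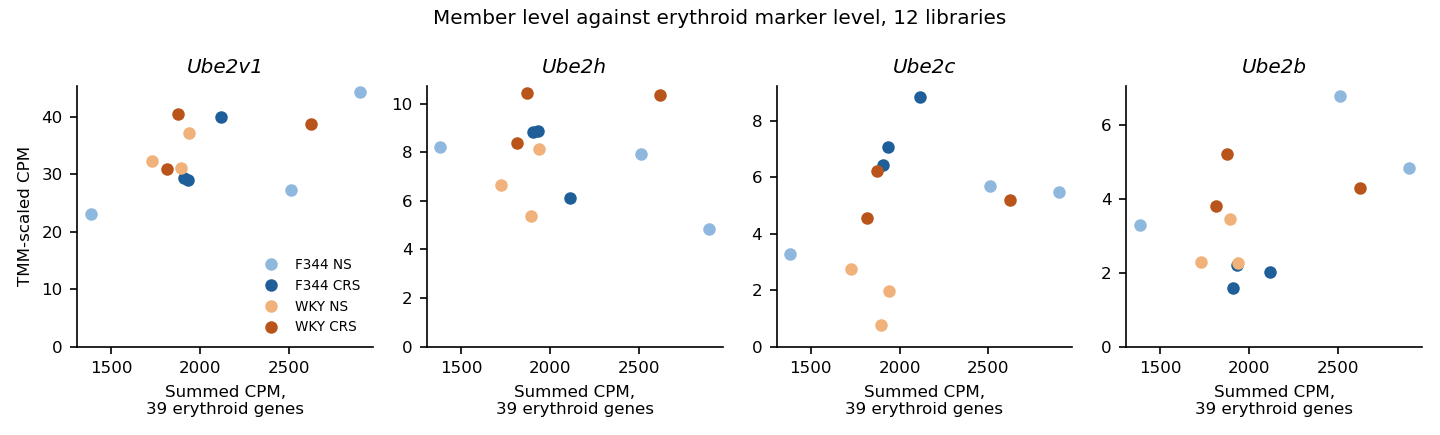
Level of Ube2v1, Ube2h, Ube2c and Ube2b (vertical axes, TMM-scaled CPM, from 0) against the summed CPM of 39 erythroid genes (horizontal axis) in 12 libraries, coloured by group. The F344 NS libraries span the horizontal range from 1384 to 2897 CPM, and F344 NS replicates 1 and 2 hold the lowest and the highest Ube2v1 values (23.0 and 44.3). Their raw counts of Ube2v1 were 84 and 73, and both axes share the scaling factors, 1.49 and 0.625 for these libraries.

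The other genes of the ubiquitin pathway were counted from lists. Of 9 activating enzyme genes, 3 were tested and 1 passed, in the strain comparisons. Atg7, the activating enzyme of autophagy, was higher in WKY than in F344 (log2 1.59, SE 0.43, adjusted p = 0.04998 after CRS; 1.71, SE 0.32, adjusted p = 0.000718 averaged over treatments). Of 7 E2 genes without a Ube2 symbol, 2 were tested and 0 passed. Atg3, the autophagy E2 that takes its cargo from Atg7, had a log2 difference between strains of -0.58 (SE 0.43). Of 12 genes for ubiquitin and its relatives, 6 were tested, 0 passed for CRS and 1, Isg15, passed between strains.

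Ubb, a gene that encodes several ubiquitin units in a row, was 918 ± 155 CPM (SD, n = 3) in F344 NS, 1292 ± 280 in F344 CRS, 579 ± 118 in WKY NS and 978 ± 485 in WKY CRS. Its log2 fold change was 0.62 (SE 0.24; adjusted p = 0.551) for CRS averaged over strains. Of 14 ligase genes of red cell maturation, 10 were tested and 0 passed in any comparison, among them Fbxo7 (0.42, SE 0.29, log2 for CRS averaged over strains) and Wdr26, of the CTLH complex that pairs with Ube2h (-0.32, SE 0.26).

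Of 22 other ligase genes, 10 were tested and 1 passed, in the strain comparisons. Park2, which encodes parkin, a partner of Ube2l3, was lower in WKY than in F344. It had 33, 9 and 16 raw counts in F344 NS and 108, 57 and 72 in F344 CRS, against 1 count in all in WKY NS and 1 in WKY CRS (adjusted p = 1.22e-06 without stress and 4.59e-09 after CRS). With so few counts in WKY the fitted fold change sets no size. Ube2l3 itself had log2 differences between strains of 0.35 (SE 0.61) and -0.22 (SE 0.61). Of 15 deubiquitinase genes, 8 were tested and 0 passed, the smallest p between strains being that of Usp15 (-0.63, SE 0.24; adjusted p = 0.153, averaged over treatments).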

How the data were processed

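Whole blood RNA (PAXgene) gave 12 libraries in 4 groups of 3, assigned from the strain and treatment in the labels. The deposited files hold raw whole-number read counts for 17337 genes. Build rn6 and the tools TopHat2 2.1.0, Cufflinks 2.2.1 and cutadapt 1.14 are listed without roles in the submitters' processing notes; the counting program, annotation and strandedness were not given in the sources used here. Rows naming no gene (80.9% to 86.6% of counts) were left out. Most of this was 1 row labelled ambiguous, which alone held 78.3% to 83.6% of counts. With no strand setting known, overlapping and antisense genes cannot be told apart.

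Counts were tested with edgeR 4.0.16 (R 4.3.3): TMM scaling, filterByExpr with a minimum count of 10 (2781 genes), 1 fit of 4 group means, quasi-likelihood F tests for 7 contrasts, Benjamini-Hochberg over 2781 genes, threshold 0.05. SE were derived from the fold change and F. Correlations used log2 CPM with a prior count of 1. Steps were tested on simulated data. Count ratios have exact 95% intervals for counting error only; reads carry no molecular identifiers. Zero limits are 3 counts.

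The members and the 23 gene lists were chosen with earlier results of these data known. Tested members were given in full by a rule: the smallest p in each direction of each contrast, and 10 named genes where tested. Ube2v1 was added for its level, and 1 tested member is not reported here by name. From each pathway list at most 2 genes a direction were eligible; Mki67 and Uba7 were chosen after their values were seen, for their role. Promoters and pseudogene names come from RefSeq tables of GRCr8, another build than rn6; 28 of 29 members matched. Alternatives were DESeq2 1.42.0, limma 3.58.1 voom, scaling, filters, left-out libraries and a replicate block.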

Additional observations from a re-analysis of the deposited data

Results flagged for a closer look

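Ube2b was singled out because the strains had opposite values after CRS. On the CPM scale, every stressed F344 library was below every unstressed one, and every stressed WKY library was above. The raw counts overlapped in F344 and met at 10 in WKY, so the arrangement depends on the scaling. The difference between strains, WKY minus F344, was 1.94 on the log2 scale, and edgeR's quasi-likelihood test of that difference did not pass over all genes (SE 0.66; adjusted p = 0.993, range over the alternatives 0.388 to 1.00). The same opposite arrangement was found for 11 of 2781 tested genes (0.396%). The lowest value over the alternatives was 1.45, without F344 NS replicates 2 and 3, and the highest 2.25, without F344 NS replicate 1.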

How the results depend on the processing

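The count of E2 genes called was 0 in each of 7 comparisons and under every one of the 21 alternatives run for them; leaving out each library in turn gave a range of 0 to 0, and the replicate block gave 0. The smallest adjusted p of any E2 gene in any setting was 0.0950, for Ube2c averaged over treatments between strains without F344 NS replicate 1. The count correlated with the erythroid level was also 0 throughout. Without a low count filter 29 E2 genes were tested, and with a minimum count of 20, 4 (Ube2c, Ube2h, Ube2s and Ube2v1). Of 77 values (11 genes in 7 comparisons), 50 kept their sign under every alternative that gave a value. Signs turned by at least 1 SE for 3 values: with limma-voom, Ube2l3 for CRS in F344 was 0.63 and Ube2l6 for CRS averaged over strains was -0.13; and without F344 NS replicates 2 and 3, chosen after seeing the data and with the lone library left assumed to vary like the other groups, Ube2v1 for the difference in response was -0.42. Ube2q1 for the difference in response, 0.00 with all libraries, ranged from -0.49 (without WKY CRS replicate 1) to 0.18 over single left-out libraries; an SE derived from a fold change that near 0 is not reliable, so this turn is not measured against it. The cause was not tested. Ube2c for CRS averaged over strains ranged from 0.93 to 1.33 on the log2 scale, with adjusted p from 0.142 to 0.697, and had an unadjusted p under 0.05 in all 20 alternatives that gave it a value; in F344 alone it ranged from 0.43, without F344 NS replicate 1, to 1.22, without F344 NS replicates 2 and 3. Over all genes, the strain comparison without stress gave 19 calls, 9 with only the groups compared, 44 without F344 NS replicate 1, 5 without F344 NS replicate 2 or replicates 2 and 3, 10 without F344 NS replicate 3, and 8 and 11 without WKY NS replicates 2 and 3 in turn. After CRS it gave 39, but 18, 18 and 20 without F344 CRS replicates 1, 2 and 3 in turn. Averaged over treatments it gave 104, but 67 and 60 without F344 CRS replicates 2 and 3, 68 without F344 NS replicate 3, 68 without WKY NS replicate 2 and 43 without F344 NS replicates 2 and 3. CRS averaged over strains gave 1, but 3 with DESeq2, 2 with limma-voom (and 2 within F344), 2 with the replicate block and 6 without a filter; and without a filter CRS gave 5 calls in F344, 8 in WKY and 3 for the difference in response, from 0. Over single left-out libraries the CRS calls ranged from 0 to 5 averaged over strains, 0 to 5 in F344 (5 without F344 NS replicate 1 in both), 0 to 2 in WKY and 0 to 2 for the difference in response (2 without WKY NS replicate 1 in both). Same-numbered libraries had deviations correlated at -0.0868 to 0.195 (median 0.0296, others -0.0121), 3 of 18 pairs over 0.1. With 3 shallow libraries a group, these values cannot show whether replicate numbers pair the libraries. With the replicate block, the strain calls over all genes were 25 without stress, 42 after CRS and 120 averaged over treatments. Depth limits these values: E2 genes other than Ube2v1 had 0 to 44 counts a library.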
